A study of Capra hircus with 9 samples.

Results

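The miR-29 family was examined in small RNA libraries of the goat mammary gland. The rule took the rows of the deposited count table whose names start with chi-miR-29a, chi-miR-29b or chi-miR-29c, which gave 6 of 1359 listed miRNAs, namely the 3p and the 5p arm of each of the 3 names. The rule reads names only. All 6 passed the filter on low counts, a level of 0.5 CPM (counts scaled to a common library total) or more in 3 libraries or more, as did 696 miRNAs in all.

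The samples were mammary gland tissue of 9 healthy Laoshan dairy goats kept under the same conditions, in parity 3 and with a mean age of 4 years. Samples of late lactation (LL) were taken on day 240 postpartum, those of the dry period (DP) on day 300 postpartum, and those of late gestation (LG) on day 140 after mating, from 3 goats per stage with 1 library each. Each goat was sampled once, so the stages are different animals. The tissue was whole gland, in which fewer cells of a type and less of a miRNA per cell cannot be told apart.

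The miR-29 family is known from other mammals for repressing mRNAs of the extracellular matrix, above all collagens, elastin and fibrillin, and the mRNAs of DNMT3A and DNMT3B, the enzymes that place new DNA methylation. Its 3p arms share a seed, the bases that pair with a target mRNA, and are the arms that act in most tissues, while the 5p arms are mostly degraded after the hairpin is cut. In cow mammary epithelial cells the family is known to hold down DNMT3A and DNMT3B. The gland builds its milk-secreting epithelium in late gestation, secretes in lactation, and loses much of that epithelium while its matrix is remodelled in the dry period. Messenger RNAs of collagens or methyltransferases were not analysed here.

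The goat gene annotation (RefSeq, ARS1.2) held 1 hairpin gene for each name. chi-mir-29a lies on chromosome 4 from 25550447 to 25550533. chi-mir-29b lies on chromosome 16 from 74180702 to 74180785, and chi-mir-29c on the same chromosome from 74270116 to 74270229. The last pair is separated by 89330 bases that hold 1 other gene, the protein-coding LOC102169209. None of the 3 hairpins overlapped another annotated gene. In human and mouse, 1 copy of miR-29b sits beside miR-29a and another beside miR-29c, and reads of the mature miRNA do not tell the copies apart. Whether the goat annotation lacks a miR-29b copy beside chi-mir-29a was not tested. The 3p arms of miR-29a and miR-29c are nearly identical in mammals, and whether reads of one were counted on the other was not tested. No member had counts equal to those of another listed miRNA in all 9 libraries.

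The libraries held 13672653 to 34378995 counts, and the member counts ranged from 28 to 84543. The lowest, that of chi-miR-29b-5p in LG replicate 2, has an exact 95% Poisson interval of 18.6 to 40.5, which covers counting error only. Levels are CPM scaled by the TMM method of edgeR (trimmed mean of M values, which matches libraries on the bulk of their miRNAs), unless said otherwise. Counts of mature miRNAs were not divided by length, since mature miRNAs are of like length. A miRNA was called differentially expressed when its p, adjusted by Benjamini-Hochberg over the 696 tested, was under 0.05 and its log2 fold change was above 1 or below −1, in edgeR's quasi-likelihood test on all 9 libraries.

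The family took its smallest part of the library in LG and its largest in DP. Its share of all counts was 0.0997%, 0.0756% and 0.0939% in the LG libraries, 0.155%, 0.185% and 0.178% in LL, and 0.327%, 0.333% and 0.419% in DP. The 3 stages did not overlap. The ratio of the mean shares was 4.01 for DP against LG, 2.09 for DP against LL and 1.92 for LL against LG. The most abundant miRNA, chi-miR-148a-3p, took 39.4% to 44.6% of the counts in LG, 48.4% to 59.4% in LL and 8.81% to 10.8% in DP, and its part in these shares was not tested. As CPM scaled by TMM, the family total was 636 to 870 in LG, 2013 to 2362 in LL and 2809.6 to 4102 in DP. The ratio of the mean totals was 4.69 for DP against LG, 1.63 for DP against LL and 2.88 for LL against LG. The order of the stages was the same on both scales. The larger step was that from LL to DP by share and that from LG to LL with TMM.

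chi-miR-29a-3p made up most of the family, with 86.1% to 91.8% of its counts in every library. It was the 38th most abundant of the 1359 listed miRNAs in DP, the 42nd in LL and the 63rd in LG, by mean CPM relative to library size. chi-miR-29b-3p followed with 5.11% to 9.58% of the family, and chi-miR-29c-5p with 1.30% to 4.49%. The remaining arms, chi-miR-29c-3p, chi-miR-29a-5p and chi-miR-29b-5p, each stayed under 2%, at most 1.99% of the family in any library. The share of chi-miR-29a-3p overlapped in all pairs of stages, so the change of the family total followed that of its main member.

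All 6 members had their lowest mean level in LG, both with TMM and with libraries scaled by size only. For chi-miR-29a-5p by library size, LG and LL hardly differed, with means of 3.99 and 4.21 CPM and overlapping libraries (log2 fold change 0.08). Among the 696 tested miRNAs, 39.4% were lowest in LG with TMM and 21.0% by library size. The members differed in which of the other stages was the highest. Both arms of miR-29a and chi-miR-29b-3p were highest in DP, while with TMM both arms of miR-29c and chi-miR-29b-5p had their highest mean in LL. By library size only, the miR-29c arms had slightly higher means in DP than in LL. These were 31.7 against 30.7 CPM for chi-miR-29c-3p and 65.1 against 63.6 CPM for chi-miR-29c-5p.

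**Figure D1:**
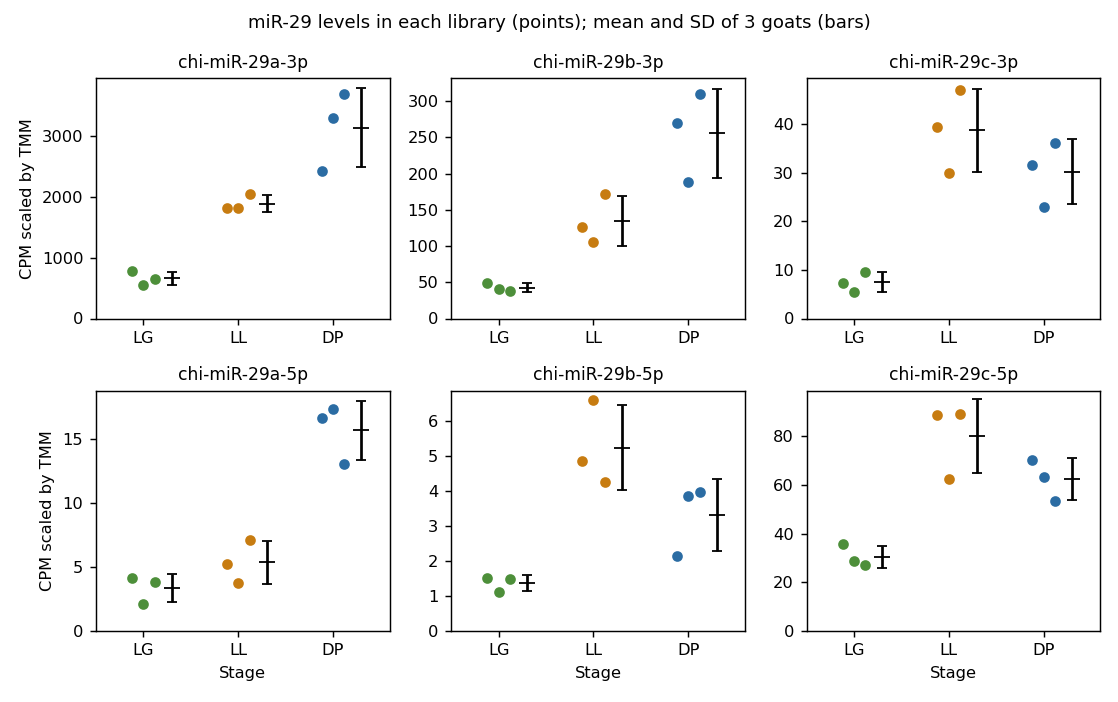
Level of each miR-29 arm in CPM scaled by TMM (vertical axes start at 0 and differ between panels) in each library of LG, LL and DP. Points are libraries and bars are the mean and SD of 3 goats. LG has the lowest mean in every panel, and DP lies above LL only for the miR-29a arms and chi-miR-29b-3p.

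DP vs. LG contrasts the regressed gland with the gland shortly before birth. All 6 members were higher in DP and called, against 21.6% of the 696 tested miRNAs called higher in DP. The members had a median log2 fold change of 2.13, and all tested miRNAs one of 0.18. The libraries of both stages did not overlap for any of the 6, as was so for 44.7% of those tested.

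chi-miR-29a-3p had 773, 558 and 653 CPM in LG and 2419.8, 3286 and 3686 CPM in DP. The lowest DP library lay at more than 3 times the highest LG library. This was a 4.74-fold rise, or 2.24 on the log2 scale (standard error, s.e., 0.23; adjusted p = 0.000134). chi-miR-29b-3p had 49.0, 41.1 and 37.4 CPM in LG and 269, 188 and 309 CPM in DP. It rose 6.01-fold (2.59 on the log2 scale, s.e. 0.29, adjusted p = 0.000197) and ranked 21st of the 696 by fold change in this comparison, the highest place of any member. chi-miR-29c-3p, the least abundant of the 3p arms, had 7.37, 5.41 and 9.49 CPM in LG and 31.6, 23.0 and 36.1 CPM in DP. It rose by 2.02 (s.e. 0.33, adjusted p = 0.00101). All 3 of these arms kept their call in each of the 18 alternative fits.

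The 5p arms also rose, one of them as much as its partner arm. chi-miR-29a-5p had 4.08, 2.05 and 3.78 CPM in LG and 16.6, 17.3 and 13.0 CPM in DP. It rose by 2.24 (s.e. 0.37, adjusted p = 0.00120) and was called in all 18 alternative fits. The calls of the other 5p arms rested on the fit. chi-miR-29b-5p had 1.51, 1.11 and 1.495 CPM in LG and 2.13, 3.86 and 3.97 CPM in DP (log2 fold change 1.28, s.e. 0.36, adjusted p = 0.0188). It was called in 7 of the 18 alternative fits. It was not called in the fits that omitted replicate 1 of LL (1.17), replicate 2 of LL (1.16), replicate 2 of DP (1.08), replicate 3 of DP (0.92), or replicate 1, 2 or 3 of LG (1.25, 1.03 and 1.199), nor with scaling by library size (1.03), with TMM factors computed without chi-miR-148a-3p (0.97), without a filter (0.91) or with at least 10 counts in every library (0.94). The adjusted p-values of edgeR's test in these fits lay between 0.0514 and 0.143. chi-miR-29c-5p had 35.6, 28.6 and 26.9 CPM in LG and 70.3, 63.3 and 53.2 CPM in DP (log2 fold change 1.04, s.e. 0.26, adjusted p = 0.0109). It stood just above the limit on the fold change, and was called in 4 of the 18 alternative fits. Only the fit without LG replicate 1 (1.01) kept it among those without 1 library; the others gave 0.88, 0.87 and 0.87 without LL replicate 1, 2 and 3, 0.75, 0.87 and 0.90 without DP replicate 1, 2 and 3, and 0.84 and 0.77 without LG replicate 2 and 3. Both arms stayed higher in DP in all 18.

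**Figure D2:**
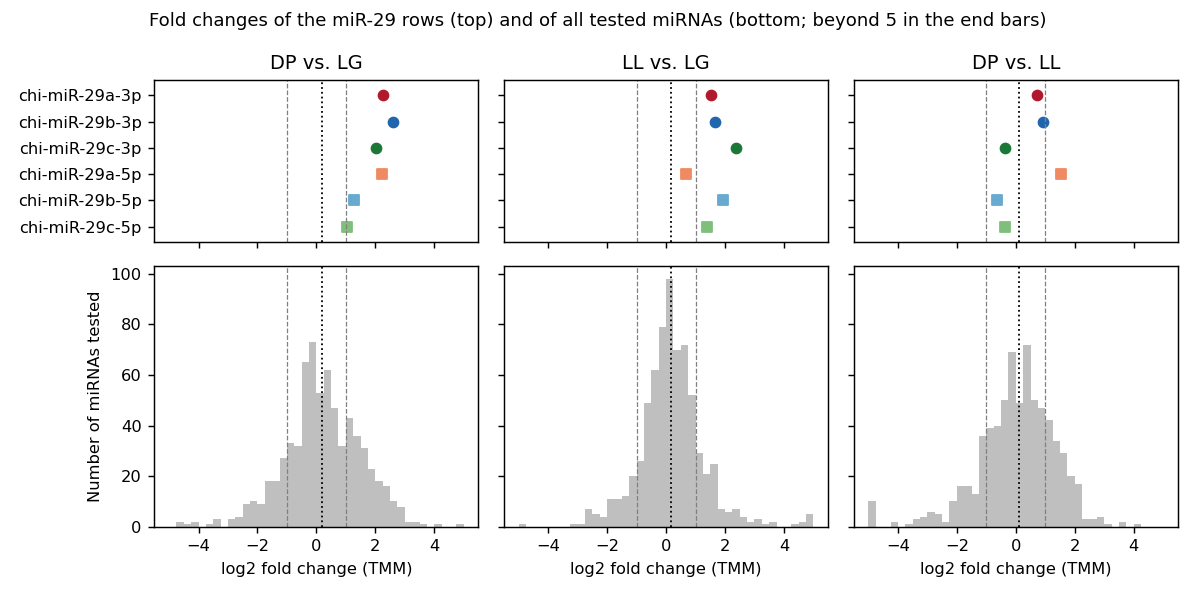
Log2 fold changes with TMM scaling of the 6 miR-29 rows (top; circles are 3p arms and squares 5p arms) and of all 696 tested miRNAs (bottom; bars count miRNAs, and values beyond 5 are in the end bars). Dotted lines mark the median of all tested and dashed lines the limit of 1. In DP vs. LG and LL vs. LG all members lie above the median, and in DP vs. LL they lie on both sides of it.

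LL vs. LG contrasts a secreting gland near the end of lactation with a gland before birth. It shares its LG libraries with DP vs. LG. Of the 6 members 5 were called, all higher in LL, against 8.91% of the 696 tested called higher in LL, and 5 did not overlap, against 48.4% of those tested. Their median log2 fold change was 1.59, against 0.17 for all tested.

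Among the members the largest rise in LL vs. LG was that of chi-miR-29c-3p, to 39.5, 29.9 and 46.9 CPM in LL, a rise by 2.38 on the log2 scale (s.e. 0.33, adjusted p = 0.00169). It ranked 24th of the 696. It was called in all 18 alternative fits. chi-miR-29c-5p stood at 88.6, 62.6 and 89.1 CPM in LL (log2 fold change 1.40, s.e. 0.26, adjusted p = 0.00727). chi-miR-29a-3p had 1813, 1806 and 2042 CPM in LL, all above its LG libraries (log2 fold change 1.51, s.e. 0.23, adjusted p = 0.00266). chi-miR-29b-3p had 127, 105 and 173 CPM in LL (log2 fold change 1.66, s.e. 0.29, adjusted p = 0.00404). chi-miR-29b-5p had 4.87, 6.61 and 4.26 CPM in LL (log2 fold change 1.93, s.e. 0.37, adjusted p = 0.00784), with 28 to 66 counts per library behind its LG level. The member that was not called was chi-miR-29a-5p. Its LL libraries, at 5.18, 3.77 and 7.07 CPM, overlapped those of LG (log2 fold change 0.69, s.e. 0.36, adjusted p = 0.215).

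The number called in LL vs. LG rested on single libraries and on the scaling. It was 3 without LL replicate 1, where chi-miR-29b-5p (1.76) and chi-miR-29c-5p (1.09) were lost, 3 without LG replicate 2, where the same arms were lost (1.63 and 1.18), and 2 without LG replicate 3, where chi-miR-29b-3p (1.36) was lost besides them (1.79 and 1.11). Without LL replicate 2 only chi-miR-29b-5p (1.61) was lost. The adjusted p-values of these lost calls in edgeR's test lay between 0.0512 and 0.0596, close to the threshold. With libraries scaled by size only, 3 were called, and chi-miR-29a-3p (0.93) and chi-miR-29c-5p (0.80) fell under the limit of 1.

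DP vs. LL contrasts the regressed gland with the gland at the end of secretion. Of the 6 members 1 was called, higher in DP, against 15.1% of the 696 tested called higher in DP. The members went in different directions, with log2 fold changes from −0.65 to 1.55. Their median was 0.19, and that of all tested 0.12. The libraries did not overlap for 4 of the 6, against 41.2% of those tested. Among the 4 was chi-miR-29b-5p, which was lower in DP and whose libraries overlapped when scaled by size only.

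The called member was chi-miR-29a-5p, with 16.6, 17.3 and 13.0 CPM in DP against 5.18, 3.77 and 7.07 CPM in LL (log2 fold change 1.55, s.e. 0.37, adjusted p = 0.00981). It was called in all 18 alternative fits. chi-miR-29a-3p and chi-miR-29b-3p were higher in every DP library than in any LL library and had adjusted p-values under 0.05, yet their folds did not reach the limit. They stood at 0.73 (s.e. 0.22, adjusted p = 0.0308) and 0.92 (s.e. 0.28, adjusted p = 0.0307) on the log2 scale. Adjusted p-values under 0.05 at any fold were found for 30.2% of the 696 tested. They were not stable. For chi-miR-29a-3p the adjusted p stayed under 0.05 in 6 of the 18 alternative fits, and among those without 1 library only in the fit without DP replicate 1 (0.0146 in edgeR), the others giving 0.0509 to 0.142. For chi-miR-29b-3p it did so in 11 of 18, and was lost without LL replicate 1 (0.0930), LL replicate 2 (0.137), DP replicate 1 (0.0705) or DP replicate 3 (0.0971). In edgeR's test it was also lost without a filter (0.0627), with at least 10 counts in every library (0.0527) and with only the 2 stages compared (0.0915). chi-miR-29b-3p passed the limit without LL replicate 3 (1.11) and without DP replicate 2 (1.17). By library size only, both passed it, at 1.08 and 1.33.

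The other members had lower means in DP than in LL without passing the test. The log2 fold change was −0.65 (s.e. 0.36, adjusted p = 0.187) for chi-miR-29b-5p, −0.36 (s.e. 0.31, adjusted p = 0.420) for chi-miR-29c-3p and −0.36 (s.e. 0.26, adjusted p = 0.318) for chi-miR-29c-5p. The DP and LL libraries overlapped for both arms of miR-29c. By library size only, the miR-29c arms had log2 fold changes of 0.05 and 0.03, so their direction turned with the scaling.

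The scaling moved all miRNAs together, and the members kept their place among them. The median log2 fold change of all tested miRNAs in LL vs. LG was 0.17 with TMM and −0.42 by library size only, and in DP vs. LL 0.12 and 0.49. Relative to that median, chi-miR-29a-3p in LL vs. LG stood at 1.35 with TMM and 1.35 by library size, and chi-miR-29c-3p at 2.21 and 2.19. In DP vs. LG, chi-miR-29b-3p stood at 2.41 with TMM and 2.42 by library size. In DP vs. LL, chi-miR-29c-3p stood at −0.48 and −0.44, below the median on both scales.

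**Figure D3:**
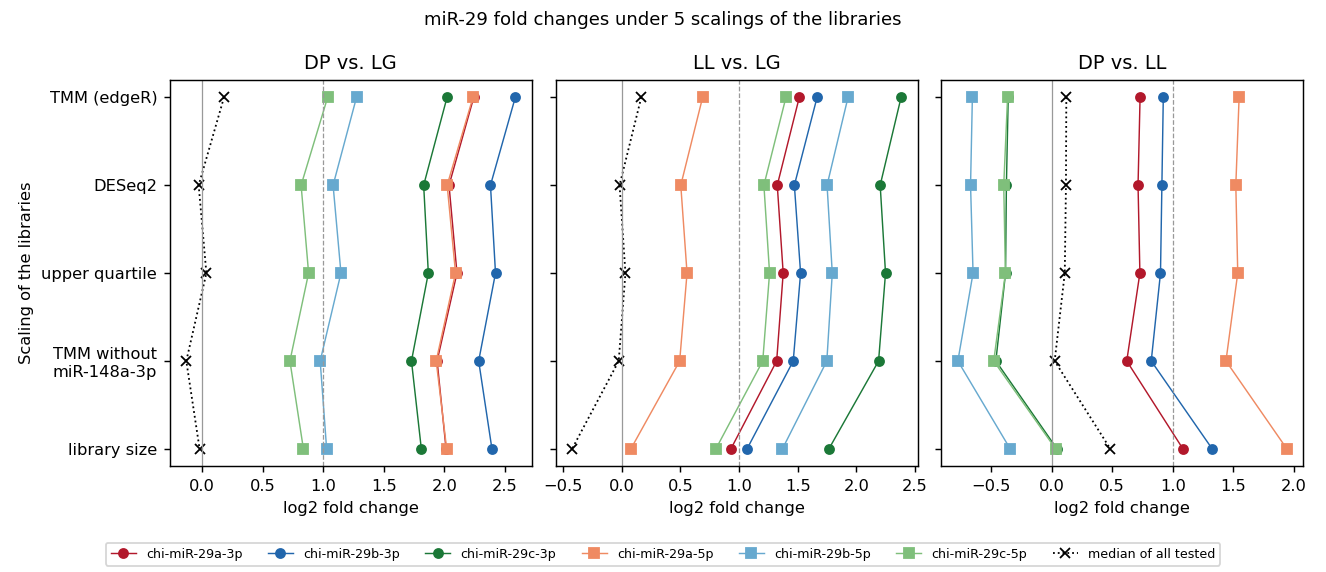
Log2 fold change of each miR-29 row (horizontal axes, which differ between panels) under 5 ways of scaling the libraries (rows). Crosses are the median of all tested miRNAs; the dashed line marks 1. Members and median move together, from 1.51 and 0.17 with TMM to 0.93 and −0.42 by library size for chi-miR-29a-3p in LL vs. LG.

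Ratios between members within a library do not depend on scaling. chi-miR-29c-3p had 31.1, 28.5 and 27.2 reads per 100 reads of chi-miR-29b-3p in LL, 11.8, 12.3 and 11.7 in DP, and 15.1, 13.1 and 25.4 in LG. The DP libraries lay within a narrow range below both other stages, and LL lay above them. Per 100 reads of chi-miR-29a-3p, chi-miR-29c-3p had 1.65 to 2.30 reads in LL, 0.701 to 1.31 in DP and 0.954 to 1.45 in LG, where LL stood apart and DP and LG overlapped. chi-miR-29b-3p had 5.81 to 8.45 reads per 100 of chi-miR-29a-3p in LL, 5.72 to 11.1 in DP and 5.73 to 7.38 in LG, with overlap in every pair of stages. Thus the ratio of chi-miR-29b-3p to chi-miR-29a-3p did not set the stages apart, though it varied within DP, and chi-miR-29c-3p had a larger part of the family in LL. These ratios are given as a description, without a test.

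The arms of a hairpin were compared as the ratio of 3p to 5p reads within each library, tested with limma over all 129 known miRNAs with both arms above the filter. miR-29a was almost all 3p, with 146 to 480 reads of the 3p arm per 5p read. miR-29b had 15.9 to 126. For miR-29c the 5p arm was the more abundant in all 9 libraries, with 0.189 to 0.677 reads of chi-miR-29c-3p per read of chi-miR-29c-5p. More 5p than 3p counts over the 9 libraries were found for 72 of the 129 pairs.

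The arm ratio of miR-29b changed in DP. It was 126, 48.7 and 77.9 in DP, 26.1, 15.9 and 40.5 in LL, and 32.5, 37.2 and 25.0 in LG. The DP libraries lay above all others. The log2 difference was 1.61 (s.e. 0.41, adjusted p = 0.0161) for DP vs. LL and 1.33 (s.e. 0.41, adjusted p = 0.0317) for DP vs. LG. Thus chi-miR-29b-3p gained on its 5p arm, while the 5p arm had 34 to 91 counts in a DP library. The background was 27.9% of the 129 pairs called in DP vs. LL and 24.8% in DP vs. LG, so calls of this kind were frequent.

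For miR-29c the ratio was 0.207, 0.189 and 0.352 in LG, 0.446, 0.477 and 0.526 in LL, and 0.450, 0.364 and 0.677 in DP. It was higher in DP than in LG (log2 difference 1.00, s.e. 0.29, adjusted p = 0.0243). LL vs. LG had the same size of difference, 1.00 (s.e. 0.29, adjusted p = 0.177), but 0.00% of the 129 pairs were called in that comparison (limma; 19 pairs had an unadjusted p under 0.05, among them miR-29c with 0.00411 and miR-29a with 0.0222). For miR-29a the ratio was 350, 480 and 289 in LL, 146, 190 and 283 in DP, and 189, 272 and 172 in LG. All LL libraries lay above those of the other stages. The log2 difference was −0.87 (s.e. 0.32, adjusted p = 0.0542) in DP vs. LL and 0.82 (s.e. 0.32, adjusted p = 0.255) in LL vs. LG, and both missed the threshold.

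The arm calls rested on single libraries too. In DP vs. LL, miR-29b was not called without LL replicate 2 (1.27, adjusted p = 0.0701), and miR-29a was called without DP replicate 3 (−1.12, adjusted p = 0.0215). In DP vs. LG, none of the 3 ratios was called without DP replicate 3 (1.33 for miR-29b and 0.75 for miR-29c), LG replicate 1 (1.36 and 0.89) or LG replicate 2 (1.46 and 0.83), and miR-29b was not called without LL replicate 1 (1.33), DP replicate 1 (0.99) or LG replicate 3 (1.18). Without DP replicate 2, miR-29c was called in LL vs. LG (1.00, adjusted p = 0.0330).

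**Figure D4:**
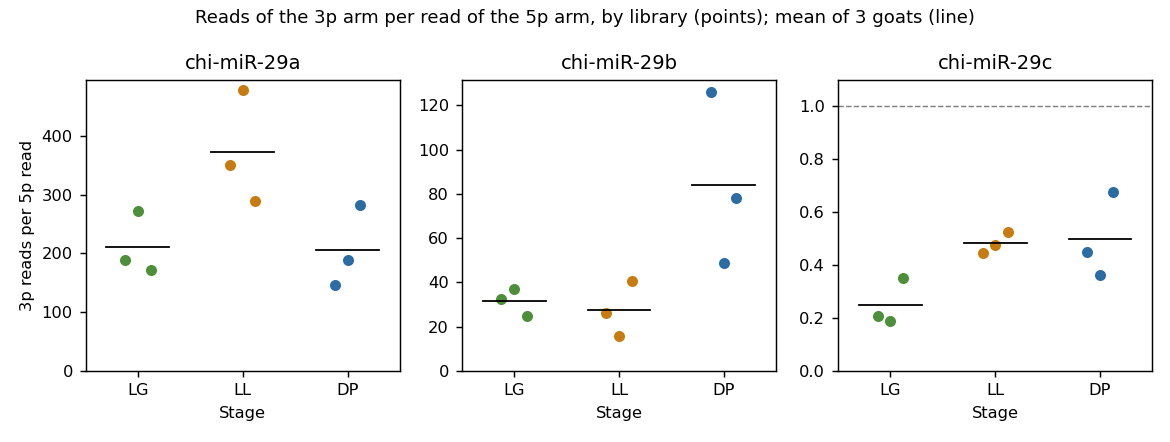
Reads of the 3p arm per read of the 5p arm (vertical axes start at 0 and differ between panels) for each miR-29 hairpin name in each library (points), with the mean of 3 goats (line). The DP libraries of miR-29b, between 48.7 and 126, lie above all others, and all libraries of miR-29c lie under the dashed line at 1.

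Of 6 listed names of other miRNAs with a known DNA methyltransferase target, 4 were in the table, all tested. chi-miR-148a-3p and chi-miR-148b-3p, which target DNMT1, were lower in DP vs. LL and called, as were 11.6% of the 696 tested. They fell by 2.87 (adjusted p = 2.49e-05) and fell by 1.37 (adjusted p = 0.000932) on the log2 scale. In DP vs. LG, where 9.91% were called lower, chi-miR-148a-3p fell by 1.93 (adjusted p = 0.000159), and chi-miR-148b-3p, at −0.90, did not reach the limit in edgeR, while DESeq2 called 2 of the 4 and limma-voom 1. chi-miR-101-3p and chi-miR-143-3p, which target DNMT3A, were called in no comparison. The median log2 fold change of the list was −0.90 in DP vs. LL, −0.38 in DP vs. LG and 0.52 in LL vs. LG, where 0 were called by edgeR, DESeq2 or limma-voom. There 2 of the 4 had an unadjusted p under 0.05 in edgeR, with chi-miR-148a-3p at 0.94 (adjusted p = 0.0120), under the limit on the fold change.

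Of 6 listed miRNAs known from fibrosis and matrix regulation, all were tested, and 3 rose in DP against both other stages, where 21.6% of the 696 were called higher in DP vs. LG and 15.1% in DP vs. LL. chi-miR-21-5p, raised in many fibrotic tissues, had log2 fold changes of 1.90 (adjusted p = 0.000976) in DP vs. LG and 1.02 (adjusted p = 0.0257) in DP vs. LL. chi-miR-199a-5p had 1.72 and 1.09, and chi-miR-214-3p 2.75 and 2.76. chi-miR-199a-5p and chi-miR-214-3p are also on the list of stromal markers. chi-miR-133a-3p, chi-miR-133b and chi-miR-30c-5p were not called. In LL vs. LG, where 8.91% of the 696 were called higher, 0 of the 6 were called by edgeR, DESeq2 or limma-voom. There chi-miR-21-5p, at 0.88 (adjusted p = 0.0676), was the only one with an unadjusted p under 0.05 in edgeR.

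Markers of the cell types of the gland moved with the stages too. Their calls by edgeR stand against 21.6% of the 696 tested called higher and 9.91% called lower in DP vs. LG, 15.1% and 11.6% in DP vs. LL, and 8.91% called higher in LL vs. LG. Of 10 listed epithelial names 8 were in the table, and their summed level was 34932 to 38643 CPM in LG, 35325 to 43018 in LL and 14060 to 22385 in DP. Of the 8, 3 were called lower in DP than in LG, and 5 lower and 1 higher in DP than in LL. In DP vs. LG, chi-miR-200b and chi-miR-200c, at −0.85 each (adjusted p = 0.0130 and 0.0170), did not reach the limit, and chi-miR-182, chi-miR-183 and chi-miR-96 had positive values of 0.95, 0.89 and 0.27 without passing the test. DESeq2 called 5 of the 8 in that comparison and limma-voom 3. The 5 stromal markers summed to 57432 to 65601 CPM in LG, 77786 to 125722 in LL and 47515 to 152577 in DP, where DP replicate 1 was the lowest and DP replicate 3 the highest of all 9 libraries. Of them 3 (chi-miR-199a-3p, chi-miR-199a-5p and chi-miR-214-3p) rose in DP against both other stages. The others, chi-miR-143-3p and chi-miR-145-5p, had −0.43 and −0.71 in DP vs. LL and 0.14 and 0.40 in DP vs. LG, without being called. chi-miR-143-3p had the highest mean of the 5 in each stage and so weighed most in the sum. The 4 immune markers tested, of 6 listed, summed to 406 to 637 CPM in LG, 893 to 1265 in LL and 1244 to 2398 in DP; all 4 were higher in DP than in LG, 2 were higher in LL than in LG, and 1 was higher in DP than in LL. Among them chi-miR-223-3p had a lower mean in DP (28.6 CPM) than in LL (59.7 CPM), at −1.06 without passing the test (adjusted p = 0.176). The 5 skeletal muscle markers summed to 419 to 530 CPM in LG, 720 to 932 in LL and 971 to 3444 in DP, of which 2 rose in DP vs. LG and 1 in DP vs. LL. The 3 red blood cell markers summed to 87.1 to 168 CPM in LG, 364 to 551 in LL and 122 to 1284 in DP, with 1 called in DP vs. LG. The 2 endothelial ones summed to 14716 to 16363 CPM in LG, 15853 to 22980 in LL and 19028 to 31975 in DP, with 1 called in DP vs. LG. The sums of the immune, muscle, red blood cell and endothelial lists had their lowest mean in LG and their highest in DP, as the miR-29 total did, and only those of muscle kept the 3 stages apart. Single libraries weighed on the DP means, with sums of 122, 1284 and 576 CPM for red blood cells and 971, 1070 and 3444 for muscle. In DP vs. LL, chi-miR-451-5p had 0.47, but chi-miR-144-3p and chi-miR-144-5p had −0.82 and −0.30. Among the muscle markers only chi-miR-499-5p was negative there, at −0.16. None of these 4 was called in DP vs. LL. In DP vs. LG, DESeq2 called 3 of the 4 immune markers and 0 of the endothelial ones, and limma-voom called 0 of the red blood cell list. No tested marker of any list was at 0 in a library. Other marker lists had 0 calls in LL vs. LG by edgeR, with 2 epithelial, 2 stromal, 1 endothelial, 1 muscle and 2 red blood cell miRNAs at an unadjusted p under 0.05, and DESeq2 called 1 of the red blood cell list. The part of these cell types in the miR-29 levels was not tested.

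Over 300 other tested miRNAs whose mean level reached 10 CPM, those most alike to each 3p arm over the 9 libraries were found by Pearson's r of log2 CPM. Nearest to chi-miR-29a-3p were the predicted NW_017189851.1_35540 (0.977) and NC_030815.1_12105 (0.953), whose names give a genome sequence and a running number, and chi-miR-195-3p (0.949). Nearest to chi-miR-29b-3p were chi-miR-195-3p (0.956), chi-miR-140-5p (0.950) and chi-miR-9-5p (0.934). chi-miR-195-3p, for example, had a mean of 66.5 CPM in LG, 121 in LL and 187 in DP, with the same order of stages as both arms. chi-miR-29a-3p and chi-miR-29b-3p were as alike to each other (0.964). chi-miR-29c-3p had no neighbour so near. Outside the family its highest values were 0.874 and 0.870 for the predicted pair NC_030828.1_27537 and NC_030828.1_27538, which may share reads, and 0.864 for chi-miR-192-5p. The levels of that pair were unlike, with means for NC_030828.1_27537 of 118 CPM in LL, 3.90 in DP and 0.627 in LG. Its log2 fold change in DP vs. LL was −4.92, against −0.36 for chi-miR-29c-3p. Within the family chi-miR-29c-3p had 0.926 with its own 5p arm, 0.865 with chi-miR-29a-3p and 0.860 with chi-miR-29b-3p. These values describe 9 libraries that fall into 3 stages, and any miRNA that differs between the stages enters them.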

How the data were processed

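The authors trimmed the reads, aligned them with miRDeep2 to the goat genome (ARS1.2), merged predicted miRNAs with those of miRBase and deposited counts of reads per mature miRNA, without normalization. In LL replicate 3 the deposited values are estimated counts, since 2 of them were 209.5, and they were rounded. The submitters' processing notes name FastQC 0.11.9, cutadapt 4.2 and Bowtie 1.1.1. The mismatch setting of the counting was not given in the sources used here. Libraries held 13672653 to 34378995 counts. No column was left out.

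Tests on counts used the quasi-likelihood functions of edgeR 4.0.16 (R 4.3.3) with TMM factors, stage as the only term and all 9 libraries. The s.e. is the absolute log2 fold change divided by the square root of F. Arm ratios, log2 of the 3p over the 5p count with 0.5 added to each, were tested with limma 3.58.1 with a trend on abundance. P-values were adjusted over all miRNAs or pairs tested. Alternatives were DESeq2 1.42.0, limma-voom, other scalings and filters, a replicate block, 2 stages at a time and each library left out; for arm ratios, 1 count added, at least 10 counts in every library, no trend, the block and each library left out. Named were all members, the listed miRNAs and, per 3p arm, the 3 most alike. Members were taken by name, but the family and the lists were chosen with earlier results of these data known. The fits were also run on simulated counts, with outcomes not given here. Those counts shared a mean profile between the stages apart from changes placed at random, so they do not speak to the scaling of these libraries.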

Additional observations from a re-analysis of the deposited data

How the results depend on the processing

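Of 324 refitted values of the members (18 alternatives for 6 members in 3 comparisons), 283 kept direction and call, 35 lost the call, 4 gained it and 2 turned. The 2 were the miR-29c arms in DP vs. LL by library size only, chi-miR-29c-3p at 0.0451 and chi-miR-29c-5p at 0.0338. The number of members called was 4 to 6 in DP vs. LG over all alternatives, and 4 to 5 when 1 library was left out. In DP vs. LL it was 3 by library size only and 1 to 2 when 1 library was left out, and in LL vs. LG 3 and 2 to 5. The number of arm ratios called when 1 library was left out was 0 to 2 in DP vs. LL, 0 to 2 in DP vs. LG and 0 to 1 in LL vs. LG. Without a trend of the spread on abundance it was 0 in DP vs. LG, where miR-29b (1.33) and miR-29c (1.00) both had an adjusted p of 0.0569 from limma. Arm differences that were not called turned when 1 library was left out, between −0.31 and 0.17 for miR-29a in DP vs. LG, between −0.61 and 0.0679 for miR-29b in LL vs. LG and between −0.25 and 0.20 for miR-29c in DP vs. LL. The cause of these changes was not tested.

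With the replicate number as a block, 1, 6 and 5 members were called in DP vs. LL, DP vs. LG and LL vs. LG, and 1, 2 and 0 arm ratios, so that it changed no count. The labels do not say what a shared number means. Deviations of libraries with the same number from their stage means correlated between −0.093 and 0.216, above 0.1 in 4 of 9 pairs, so that not every pair was above it and the numbers were not taken as pairs. Yet 7 of 9 libraries correlated best with 1 of their own number, a hint from the data of something shared.

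The lowest counts limit chi-miR-29b-5p most, with 28 to 100 counts per library.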
